A study of Mus musculus with 21 samples.

Results

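The genes described here are the 4 early growth response genes, Egr1, Egr2, Egr3 and Egr4, and the genes of their corepressors, Nab1 and Nab2. They were chosen by name, and all 6 were in the deposited table of 24984 genes and among the 16959 genes with enough counts to be tested. Nascent RNA was measured by BrU-seq, which labels RNA with bromouridine while it is being made, in CD1 mouse cortical cultures on day 17 in vitro. Every culture was first kept for 30 min with 25 µM MM401, a compound that blocks the binding of the histone methyltransferase MLL1 to WDR5, or with DMSO, its solvent. Bicuculline-methiodide (40 µM), which blocks GABA-A receptors, or sterile water then followed for 1 h or 4 h, and all cultures received 2 mM bromouridine during the final 30 min. The groups were DMSO with water for 4 h, DMSO with bicuculline for 1 h and for 4 h, and MM401 with water for 1 h and for 4 h and with bicuculline for 1 h and for 4 h. A DMSO group with water for 1 h was not analysed here, so the 1 h response in DMSO was measured against water at 4 h. The study asked how transcription follows raised network activity and what MLL1 inhibition does to that response.

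Each group had 3 biological replicates of mixed sex, and 20 of the 21 libraries were used. Their totals in genes ran from 49886348 to 87939384. Replicate 3 of MM401 with water at 4 h was left out because it held 316741 counts, 0.503% of the median of the others. It had 22 counts in Nab1, 1 in Egr1 and 0 in the other 4 genes, so that group rests on 2 libraries. The cultures were whole and mixed. The 5 pan-neuronal markers summed to 4523 to 7194 CPM (counts scaled to the library total) per library and the 6 astrocyte markers to 1068 to 1652 CPM. The 4 Schwann cell markers, of interest because Egr2 is a Schwann cell regulator, summed to no more than 2.16 CPM, with Foxd3 at 0 in every library. The sum of the 6 inhibitory neuron markers was higher in bicuculline (522 to 705 CPM) than in water (345 to 400 CPM), and the 7 excitatory markers summed to 834 to 1173 CPM against 665 to 836 CPM. The 6 oligodendrocyte lineage markers summed to 169 to 193 CPM in bicuculline and 144 to 165 CPM in water, without overlap. The 6 astrocyte markers overlapped, with 1299 to 1652 CPM in bicuculline and 1068 to 1579 CPM in water. At 4 h of bicuculline in DMSO their sums (1307 to 1435 CPM) lay within those of DMSO with water (1111 to 1579 CPM). The 5 pan-neuronal markers summed to 6045 to 7194 CPM at 4 h of bicuculline and 4523 to 5673 CPM in water, and the 6 microglia markers to 31.1 to 40.0 CPM and 25.1 to 33.1 CPM. Single markers went both ways at 4 h against water. In DMSO 3 pan-neuronal markers were called higher and 2 lower, where 23.7% and 25.5% of all genes were. Under MM401 2 were called higher and 2 lower, against 23.0% and 21.7%. Of the 7 excitatory markers, 3 were called higher and 2 lower in each pretreatment. The part of these shifts in the results below was not tested. Replicate 1 of DMSO with water stood apart from the other 2 libraries of its group (chi-square per degree of freedom 45.6 and 78.5, where the next highest of 19 replicate pairs had 29.4). Without it, all 6 genes were still called at 1 h in DMSO, and at 4 h 5 were called in place of 4, Egr2 being the one added. In such bulk samples, fewer cells that transcribe a gene and less RNA per cell cannot be told apart.

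The EGR proteins are zinc finger transcription factors that bind GC-rich sites. In cortical neurons their genes are immediate early genes: calcium and ERK signalling act through serum response factor (SRF), its ELK partners and CREB on promoters that need no new protein. NAB1 and NAB2 bind EGR1, EGR2 and EGR3 through an inhibitory domain, which EGR4 lacks, and recruit the chromatin-remodelling complex NuRD through CHD4. Nab2 has itself been described as an EGR target in several cell types, which would make NAB2 a feedback brake there. Whether this holds in these cultures was not tested.

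The promoters below are shown because the genes differed in course: the Egr genes rose and fell back, Nab1 rose and kept most of its rise, and Nab2 fell. They are the 250 bases before the start site that lies within 1 base of the 5′ end of the gene's span in the table, from RefSeq on build GRCm38.p6 (mm10), 5′ to 3′ on the gene's strand. Capitals mark matches, on either strand, to the CArG box bound by SRF, to the CRE half-site TGACG bound by CREB, or to the EGR site GCGNGGGCG. The ETS core CCGGAA was searched as well and had no match in these windows. A window was found for 4 of the 6 genes.
Egr2 promoter: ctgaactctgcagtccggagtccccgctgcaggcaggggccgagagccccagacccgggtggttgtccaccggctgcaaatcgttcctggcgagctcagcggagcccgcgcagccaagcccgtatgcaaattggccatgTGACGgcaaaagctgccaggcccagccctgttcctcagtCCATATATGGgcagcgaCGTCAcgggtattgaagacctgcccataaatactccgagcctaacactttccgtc
Egr4 promoter: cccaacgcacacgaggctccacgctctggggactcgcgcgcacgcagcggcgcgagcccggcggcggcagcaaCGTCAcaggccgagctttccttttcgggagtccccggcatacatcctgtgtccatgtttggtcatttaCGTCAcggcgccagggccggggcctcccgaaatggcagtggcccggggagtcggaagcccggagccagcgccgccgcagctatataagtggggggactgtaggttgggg
Nab1 promoter: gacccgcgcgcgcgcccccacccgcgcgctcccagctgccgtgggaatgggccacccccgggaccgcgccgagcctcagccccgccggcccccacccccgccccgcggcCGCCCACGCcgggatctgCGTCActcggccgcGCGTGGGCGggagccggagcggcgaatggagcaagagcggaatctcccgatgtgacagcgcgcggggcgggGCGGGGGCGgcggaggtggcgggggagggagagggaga
Nab2 promoter: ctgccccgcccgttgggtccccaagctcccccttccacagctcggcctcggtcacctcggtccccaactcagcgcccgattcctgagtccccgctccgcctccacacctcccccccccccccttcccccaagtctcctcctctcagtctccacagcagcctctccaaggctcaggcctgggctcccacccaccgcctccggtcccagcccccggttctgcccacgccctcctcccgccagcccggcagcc

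The Egr2 window, on the plus strand at chr10:67537619-67537868, held 1 CArG box at positions -72 to -63 from the start site and 2 CRE half-sites at -111 to -107 and -55 to -51. The Egr4 window, on the minus strand at chr6:85513590-85513839, held 2 CRE half-sites at -177 to -173 and -109 to -105. The Nab1 window, on the minus strand at chr1:52500449-52500698, held 3 EGR sites at -141 to -133, -109 to -101 and -38 to -30, and 1 CRE half-site. Its GC content was 80.8%, the highest of the 4. The Nab2 window, on the minus strand at chr10:127666704-127666953, held no match to any of the 4 motifs. Over the 32851 windows of this length in the RefSeq table, a CArG box was found in 1.47%, a CRE half-site in 17.8%, an EGR site in 4.70% and an ETS core in 12%. No motif overlapped another in the windows shown. A match describes the letters and is neither a site nor a cause. Egr3 and Egr1 are named only.

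In the table, whole gene spans were counted, introns included. Egr1 spans 3751 bases on chromosome 18, Egr2 4321 bases on chromosome 10, Egr3 5170 bases at chr14:70077444-70082613 and Egr4 2470 bases on chromosome 6. Nab2 spans 5787 bases on chromosome 10, and Nab1 is far longer, with 44601 bases on chromosome 1. Counts per library ran from 3195 to 17325 for Egr1, 182 to 1293 for Egr2, 510 to 2693 for Egr3 and 111 to 2873 for Egr4. They ran from 3771 to 8141 for Nab1 and 94 to 314 for Nab2, so the lowest values of Nab2, Egr4 and Egr2 rest on the fewest reads.

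All 6 genes changed within 1 h of bicuculline: the 4 Egr genes and Nab1 rose and Nab2 fell, in DMSO and under MM401 alike. The Nab2 call at 1 h held in 4 of 6 fits without 1 library in DMSO and in 3 of 6 under MM401. Egr4 rose most, 10.7-fold in DMSO and 10.9-fold under MM401. By 4 h the 4 Egr genes had fallen from their 1 h level in both pretreatments, and Egr3 stood below water in both. Egr1 was below water in DMSO, while its call under MM401 held in 1 of 5 fits without 1 library. Nab1 kept most of its rise at 4 h, while Nab2 fell further. The plot of CPM by library shows this course for each gene. Values below are CPM relative to the TMM-scaled library total, given for replicates 1, 2 and 3 in that order. Changes between groups are on the log2 scale and carry the standard error (SE) of edgeR's quasi-likelihood test across all 16959 genes, called at a Benjamini-Hochberg adjusted p under 0.05.

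**Figure D1:**
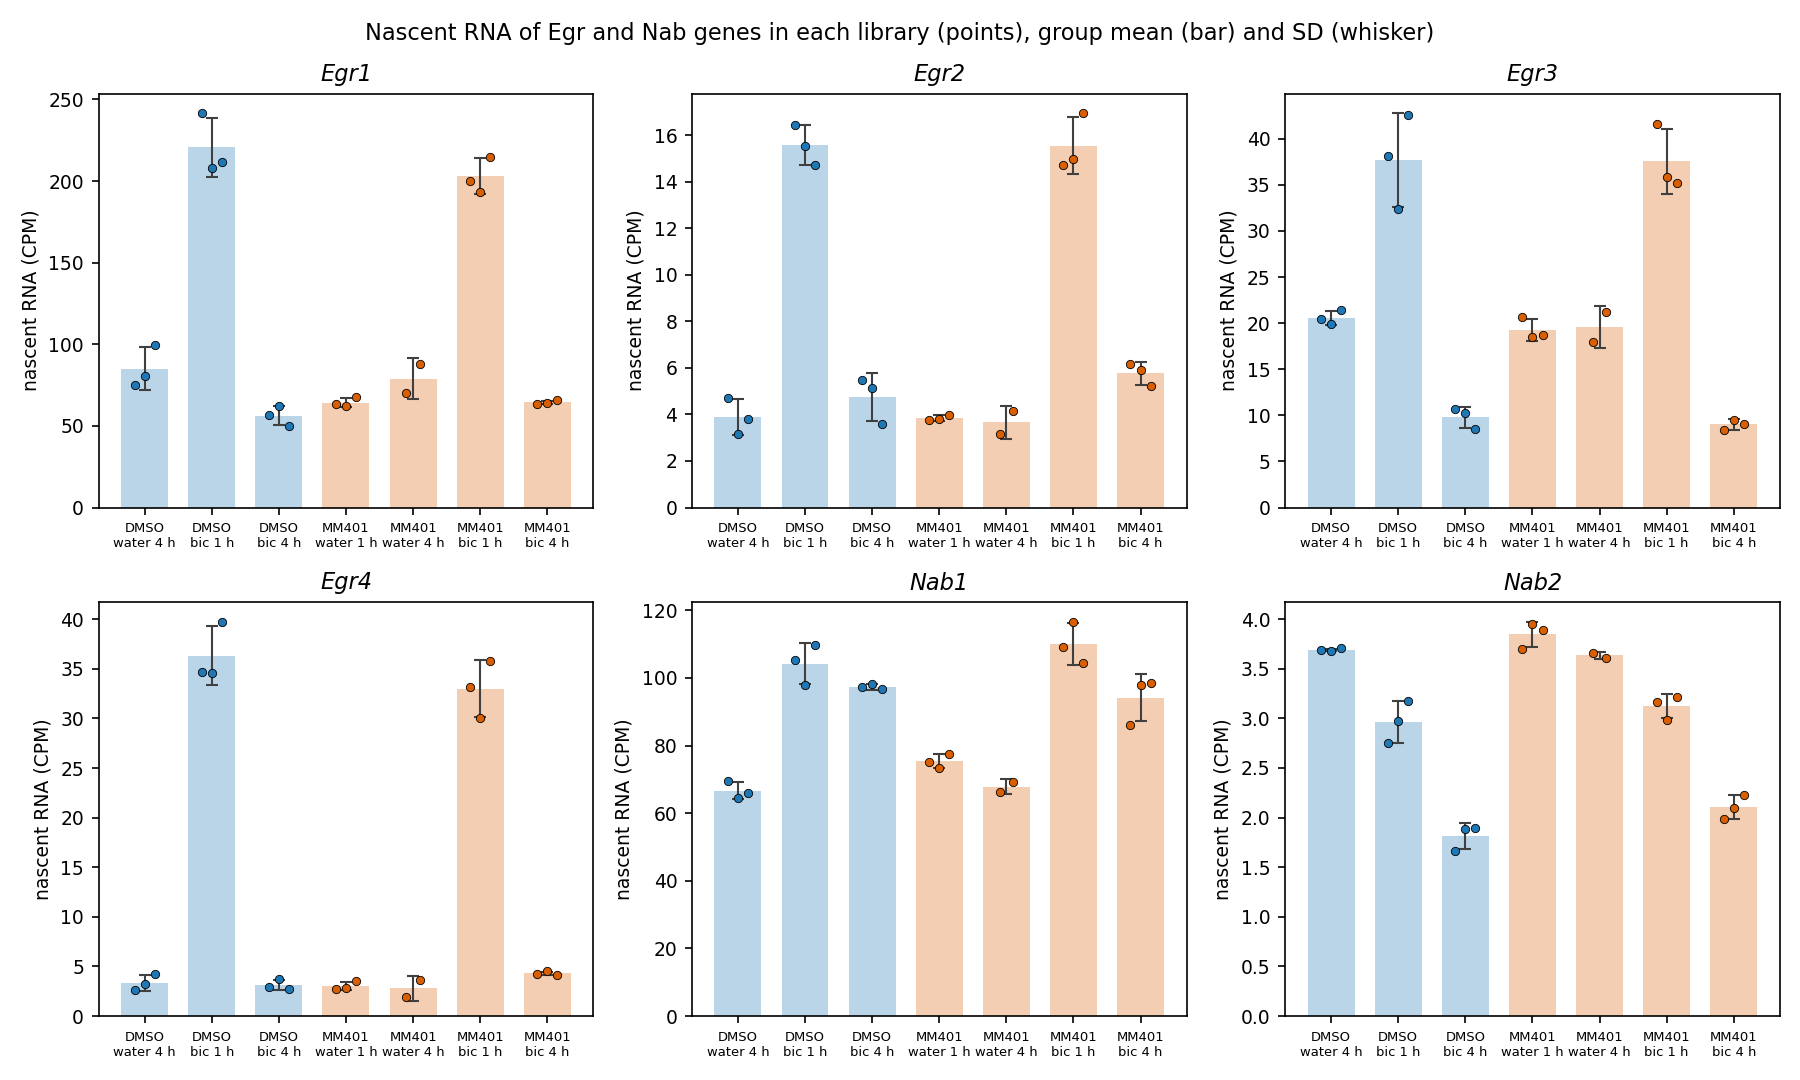
Nascent RNA of each gene in CPM (linear y axes from 0) in the 7 groups; points are libraries, bars are group means and whiskers are SD, with DMSO in blue and MM401 in orange. The 4 Egr genes have their highest bars at 1 h of bicuculline, Nab1 stays high at 4 h, and Nab2 steps down from about 3.69 CPM in DMSO water to 1.81 CPM at 4 h.

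Egr4, the member without a NAB-binding domain, was low in water, at 111 to 318 counts per library. In DMSO with water it stood at 2.67, 3.20 and 4.22 CPM. After 1 h of bicuculline it reached 34.6, 34.5 and 39.7 CPM. All 3 libraries were far above every water library. At 4 h it was back at 2.95, 3.69 and 2.72 CPM, within the range of the water libraries. Under MM401 it held 2.77, 2.80 and 3.49 CPM in water at 1 h, and 1.92 and 3.66 CPM in the 2 libraries of water at 4 h. Bicuculline took it to 33.1, 30.0 and 35.8 CPM at 1 h, and at 4 h it held 4.23, 4.51 and 4.16 CPM. These 4 h libraries all lay above both of their 4 h water libraries. The 1 h libraries of the 2 pretreatments overlapped.

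Egr4's rise at 1 h was a log2 change of 3.42 ± 0.18 in DMSO (edgeR adjusted p = 2.59e-11), the tenth largest rise of all genes tested, and 3.45 ± 0.18 under MM401 (2.94e-11). From 1 h to 4 h it fell by 3.54 ± 0.18 in DMSO (8e-11), the deepest fall of any gene tested, to 8.59% of its 1 h level. Under MM401 it fell by 2.94 ± 0.17 (7.1e-10), the tenth deepest fall, to 13.0% of the 1 h level. Against its own water at 4 h it did not pass the test in DMSO (-0.12 ± 0.19, edgeR adjusted p = 0.624) and was called higher under MM401 (0.62 ± 0.21, 0.0253). That last call was lost when replicate 2 of the bicuculline group was dropped (0.59, edgeR adjusted p = 0.0601). Plain library size in place of TMM also ended it (0.55, edgeR adjusted p = 0.066). Without 1 library the value ran from 0.21, with replicate 1 of water dropped and 1 water library left, to 1.13.

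Egr2, known for hindbrain patterning and myelination and also induced by synaptic activity, followed the same course from a low level. It held 4.70, 3.16 and 3.82 CPM in DMSO with water, and 16.4, 15.5 and 14.7 CPM after 1 h of bicuculline. After 4 h it held 5.50, 5.15 and 3.59 CPM, which overlapped the water libraries. Under MM401 it held 3.77, 3.80 and 3.98 CPM in water at 1 h and 3.15 and 4.16 CPM at 4 h. Bicuculline took it to 14.7, 14.96 and 16.9 CPM at 1 h and left it at 6.18, 5.89 and 5.21 CPM at 4 h. Those 4 h libraries did not overlap the water libraries.

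Egr2 rose 4.03-fold at 1 h in DMSO (log2 2.01 ± 0.14, edgeR adjusted p = 2.41e-10) and 4.04-fold under MM401 (2.01 ± 0.14, 2.67e-10). It fell by 1.72 ± 0.14 from 1 h to 4 h in DMSO (edgeR adjusted p = 4.91e-09) and by 1.43 ± 0.14 under MM401 (7.19e-08). At 4 h against water it was 0.29 ± 0.15 in DMSO, which did not pass the test (edgeR adjusted p = 0.106), and it was called higher under MM401 at 0.65 ± 0.17 (0.00311). Single libraries decided both outcomes. In DMSO it was called without replicate 1 of water (0.44, edgeR adjusted p = 0.0189) or without replicate 3 of bicuculline at 4 h (0.46, 0.00955). Other fits in DMSO lowered it: the lowest value without 1 library was 0.14, and plain library size gave 0.021 (edgeR adjusted p = 0.918). Under MM401 it was not called without replicate 1 of water at 4 h (0.45, edgeR adjusted p = 0.0994).

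Egr1, the most studied activity-induced member, was the most abundant of the 4 throughout. It stood at 74.8, 80.8 and 99.7 CPM in DMSO with water and at 242, 208 and 212 CPM after 1 h of bicuculline. By 4 h it had dropped to 56.5, 62.1 and 50.2 CPM, with all 3 libraries below all 3 water libraries. Under MM401 it held 63.2, 62.1 and 67.5 CPM in water at 1 h, and 70.3 and 87.8 CPM in water at 4 h. With bicuculline it held 200.2, 193 and 215 CPM at 1 h, and 63.4, 64.1 and 65.7 CPM at 4 h. The 4 h bicuculline libraries lay below both 4 h water libraries but within the range of the 1 h water libraries.

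Egr1 rose by a log2 change of 1.37 ± 0.099 at 1 h in DMSO (edgeR adjusted p = 1.15e-09) and of 1.66 ± 0.10 under MM401 (7.9e-11). Measured against water at 4 h in both pretreatments, the MM401 value was 1.36. It fell by 1.97 ± 0.10 from 1 h to 4 h in DMSO (edgeR adjusted p = 4.31e-11) and by 1.66 ± 0.10 under MM401 (3.73e-10). It was below water at 4 h in DMSO, at -0.60 ± 0.098 (edgeR adjusted p = 4.35e-05). Under MM401 the difference from water was -0.30 ± 0.11 (edgeR adjusted p = 0.0334). That call was lost in 4 of 5 fits without 1 library, over which the difference ran from -0.47 to -0.16. It was lost without replicate 2 of water at 4 h (-0.16). The same held without replicate 1 (-0.28, edgeR adjusted p = 0.0766), 2 (-0.29, 0.0673) or 3 (-0.31, 0.0524) of bicuculline at 4 h. With all 21 libraries the difference was -0.20 (edgeR adjusted p = 0.458).

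Egr3, a member needed for muscle spindles and linked to learning in the hippocampus, had the smallest rise of the 4 and the deepest fall below water. It held 20.5, 19.9 and 21.4 CPM in DMSO with water, 38.1, 32.4 and 42.5 CPM at 1 h of bicuculline, and 10.7, 10.2 and 8.52 CPM at 4 h. The 3 groups did not overlap. Under MM401 it held 20.7, 18.5 and 18.7 CPM in water at 1 h and 18.0 and 21.2 CPM in water at 4 h. With bicuculline it held 41.6, 35.8 and 35.2 CPM at 1 h and 8.44, 9.54 and 9.06 CPM at 4 h. Again the 1 h libraries lay above all water libraries and the 4 h libraries below them.

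The rise of Egr3 at 1 h was 0.87 ± 0.097 in DMSO (edgeR adjusted p = 2.62e-07) and 0.96 ± 0.098 under MM401 (6.85e-08). Its change from 1 h to 4 h was -1.94 ± 0.10 in DMSO (edgeR adjusted p = 1.87e-11), beside -1.97 for Egr1, and was -2.06 ± 0.10 under MM401 (1.2e-11). At 4 h it was called below water by -1.07 ± 0.10 in DMSO (edgeR adjusted p = 1.22e-08) and by -1.12 ± 0.11 under MM401 (5.73e-08), so it stood at 47.6% and 46.0% of the water level.

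The corepressor genes took other courses, and in opposite directions. Nab1 held 69.5, 64.6 and 65.9 CPM in DMSO with water, 105, 97.9 and 109.7 CPM at 1 h of bicuculline, and 97.2, 98.2 and 96.6 CPM at 4 h. Both bicuculline groups lay above all water libraries, and they overlapped each other. Under MM401 it held 75.3, 73.3 and 77.5 CPM in water at 1 h and 66.2 and 69.3 CPM in water at 4 h. With bicuculline it held 109, 117 and 104 CPM at 1 h, and 86.1, 98.0 and 98.4 CPM at 4 h. Here the 1 h and 4 h bicuculline groups did not overlap.

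Nab1 rose by 0.65 ± 0.059 at 1 h in DMSO (edgeR adjusted p = 1.4e-08) and by 0.55 ± 0.059 under MM401 (1.78e-07). At 4 h it was still called higher than water, by 0.55 ± 0.059 in DMSO (edgeR adjusted p = 1e-07) and 0.47 ± 0.067 under MM401 (6.42e-06). Between 1 h and 4 h it changed by -0.10 ± 0.059 in DMSO, which did not pass the test (edgeR adjusted p = 0.213). Under MM401 it fell by 0.22 ± 0.059 (0.00493). The 2 outcomes changed places with plain library size, at -0.18 in DMSO (edgeR adjusted p = 0.0245) and -0.14 under MM401 (0.0725). Of the 1 h rise in CPM, 81.6% was left at 4 h in DMSO and 62.5% under MM401. With plain library size, tried after the data were seen, these were 56.3% and 69.9%, so the order of the pretreatments turned with the scaling. For Egr2 the share left was 7.34% and 17.7%, and for Egr4 it was -0.746% and 4.99%. Plain size gave 0.610% and 17.4% for Egr2, and -2.88% and 4.77% for Egr4. In the other 2 Egr genes it was below 0, since both had dropped under water. These shares use water at 4 h as the base and have no test of their own.

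Nab2, the lowest of the 6 per kilobase of gene span, fell in both steps. It held 3.68, 3.68 and 3.70 CPM in DMSO with water, 2.75, 2.97 and 3.17 CPM after 1 h of bicuculline, and 1.66, 1.89 and 1.89 CPM after 4 h. The 3 groups did not overlap. Under MM401 it held 3.70, 3.95 and 3.89 CPM in water at 1 h and 3.66 and 3.61 CPM in water at 4 h. It held 3.17, 2.98 and 3.22 CPM at 1 h of bicuculline and 1.99, 2.09 and 2.23 CPM at 4 h. These groups, too, stood apart in the same order.

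The 1 h fall of Nab2 was -0.32 ± 0.10 in DMSO (edgeR adjusted p = 0.014) and -0.30 ± 0.10 under MM401 (0.0226). In DMSO the call was lost without replicate 2 of water (-0.29, edgeR adjusted p = 0.0566) or replicate 1 of bicuculline at 1 h (-0.27, 0.0641), with all 21 libraries (-0.30, 0.0656) and with only the groups compared in the fit (-0.29, 0.111). Under MM401 it was lost without replicate 2 or 3 of water at 1 h (-0.28, edgeR adjusted p = 0.0757; -0.29, 0.0655), without replicate 2 of bicuculline at 1 h (-0.27, 0.0858), with all 21 libraries (-0.30, 0.0705) and against water at 4 h (-0.22, 0.14). Plain library size kept both 1 h calls, at -0.51 in DMSO (edgeR adjusted p = 0.00138) and -0.51 under MM401 (0.00145), so the size of this fall moved with the scaling. With TMM the later fall was larger. Nab2 was below water at 4 h by -1.02 ± 0.11 in DMSO (edgeR adjusted p = 5.21e-08) and by -0.79 ± 0.12 under MM401 (1.23e-05), and below its 1 h level by -0.70 ± 0.11 (2.06e-05) and -0.57 ± 0.11 (0.000257).

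Nab2 shares 71 bases with Stat6, a gene on the opposite strand, and the sources used here do not state whether counting used strand, so reads there cannot be told apart. Stat6 held 2.05 ± 0.16 CPM (SD, n = 3) in DMSO with water and 2.72 ± 0.61 CPM at 4 h of bicuculline. It was called higher at 4 h, by 0.40 ± 0.16 in DMSO (edgeR adjusted p = 0.0376) and 0.45 ± 0.18 under MM401 (0.0426), the reverse of Nab2. Ado, 2321 bases from Egr2, and Fbxo41, 8125 bases from Egr4, took other courses at 1 h. In DMSO they were called lower, by -0.55 ± 0.14 (edgeR adjusted p = 0.0022) and -0.73 ± 0.064 (8.35e-09). Under MM401 Fbxo41 was called lower again (-0.60 ± 0.065, edgeR adjusted p = 1.5e-07), and Ado was not called at 1 h (-0.29 ± 0.14, 0.105) or at 4 h (0.24 ± 0.15, 0.22).

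Counted over the 6 genes, 5 were called higher and 1 lower at 1 h in DMSO, where 20% of all genes tested were called higher and 24.5% lower. The median log2 change of the 6 was 1.12, beside -0.038 over all genes. Under MM401 at 1 h the counts were again 5 and 1, against 18.1% of all genes higher and 21.8% lower, and the median was 1.31. At 4 h against water in DMSO, 1 gene was called higher and 3 lower, where 23.7% and 25.5% of all genes were. Under MM401 at 4 h, 3 were called higher and 3 lower, against 23.0% and 21.7%. The 1 of 6 called higher in DMSO at 4 h is near the share of all genes. Nab1 was the only member called higher at 4 h in both pretreatments. From 1 h to 4 h in DMSO, 0 members were called higher and 5 lower, against 19.1% and 15.2% of all genes. Under MM401, 0 were called higher and 6 lower, against 17.5% and 16.0%. The median over the members was -1.83 in DMSO and -1.54 under MM401.

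**Figure D2:**
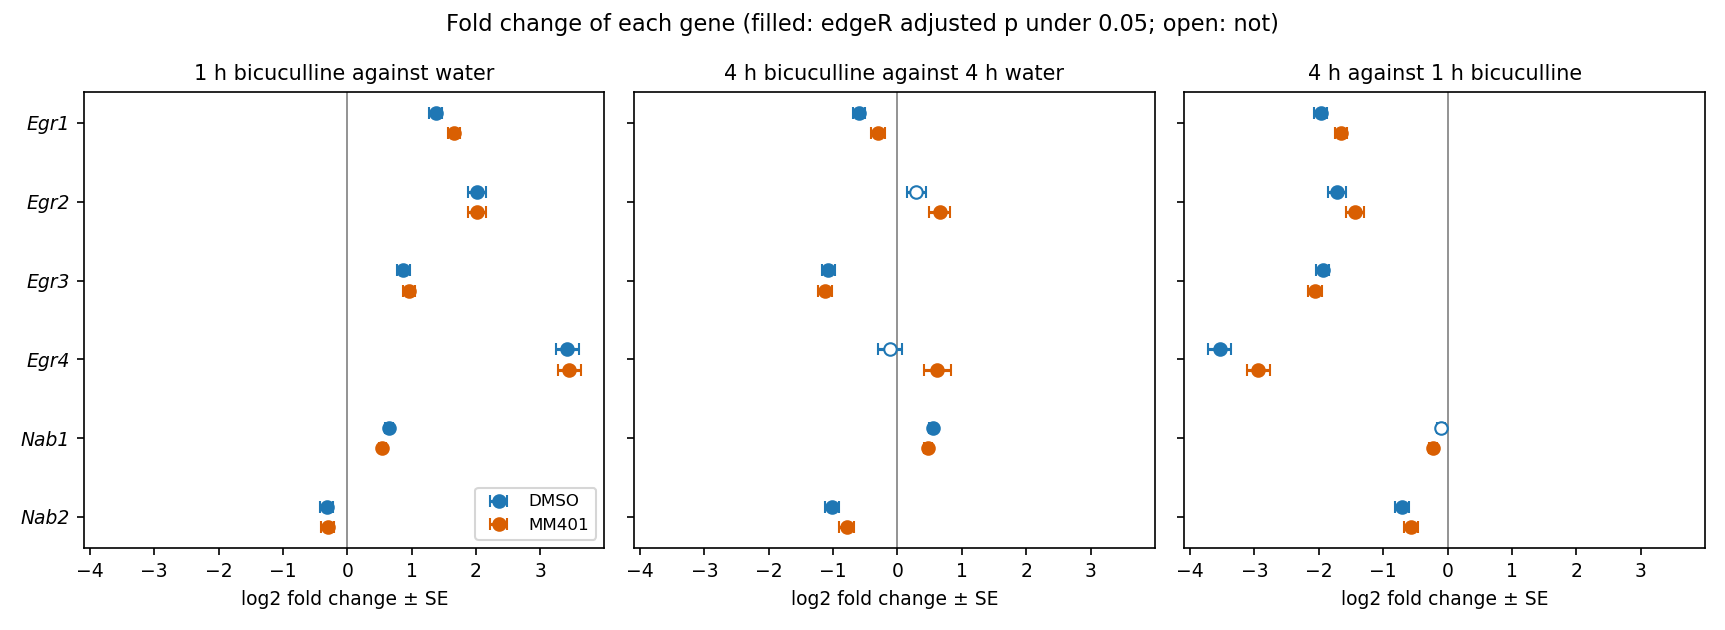
Log2 fold change of each gene with its SE (whiskers) in 3 comparisons, for DMSO in blue and MM401 in orange; filled points passed edgeR's test at an adjusted p under 0.05 and open points did not. The Egr genes lie right of 0 at 1 h and left of 0 in the step from 1 h to 4 h, down to -3.54 for Egr4.

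Without TMM, scaled by plain library size, the median of all genes shifted by -0.19 and -0.28 at 1 h and 4 h in DMSO, by -0.21 at 1 h under MM401, and by 0.11 for MM401 against DMSO at 4 h of bicuculline. The share of calls that were higher moved with it. It was 44.9% with TMM and 21.2% with plain size at 1 h in DMSO, 48.1% and 18.8% at 4 h, 45.4% and 16.3% at 1 h under MM401, and 51.5% and 40.3% at 4 h. From 1 h to 4 h it was 55.7% and 39.2% in DMSO and 52.3% and 65.0% under MM401. The directions of the members held under both scalings in these 6 comparisons. With plain size Nab1 was 0.46 higher at 1 h and 0.27 higher at 4 h in DMSO, and Egr4 was 3.22 higher at 1 h.

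The make-up of the family shifted with time. Levels are compared between genes per kilobase of gene span. In DMSO with water, Egr1 held 22.7 CPM per kb, Egr3 3.98, Nab1 1.49, Egr4 1.36, Egr2 0.901 and Nab2 0.638. The libraries of Nab1, Egr4 and Egr2 overlapped along that order, and the other neighbours were apart. After 1 h of bicuculline the order was Egr1 with 58.8 CPM per kb, Egr4 with 14.7, Egr3 with 7.29, Egr2 with 3.60, Nab1 with 2.34 and Nab2 with 0.512, with no overlap between neighbours. At 4 h it was Egr1 with 14.99 CPM per kb, Nab1 with 2.18, Egr3 with 1.90, Egr4 with 1.26, Egr2 with 1.10 and Nab2 with 0.313. Egr4 and Egr2 overlapped there, and the other neighbours did not.

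Summed over the 4 Egr genes, the level was 28.9 ± 3.85 CPM per kb (SD, n = 3) in DMSO with water, 84.4 ± 5.11 at 1 h and 19.3 ± 2.15 at 4 h. Under MM401 it was 23.0 ± 0.92 in water at 1 h, 26.8 ± 4.41 (n = 2) in water at 4 h, 78.3 ± 4.21 at 1 h of bicuculline and 22.0 ± 0.27 at 4 h. Egr1 gave 78.3% ± 1.66 of the DMSO water sum, 69.6% ± 2.42 at 1 h and 77.9% ± 1.01 at 4 h. Egr4's share went from 4.67% ± 0.50 to 17.5% ± 1.73 and back to 6.54% ± 0.47. Egr3 lost share at 1 h, from 13.9% ± 1.39 to 8.63% ± 1.01. Nab1 per kb was 2.34 ± 0.091 times Nab2 in DMSO with water, 4.57 ± 0.35 times at 1 h and 6.99 ± 0.52 times at 4 h, and the ranges of the 3 groups did not overlap. Under MM401 the ratio was 2.54 ± 0.12 and 2.42 ± 0.10 in water at 1 h and 4 h, 4.59 ± 0.44 at 1 h of bicuculline and 5.81 ± 0.24 at 4 h.

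**Figure D3:**
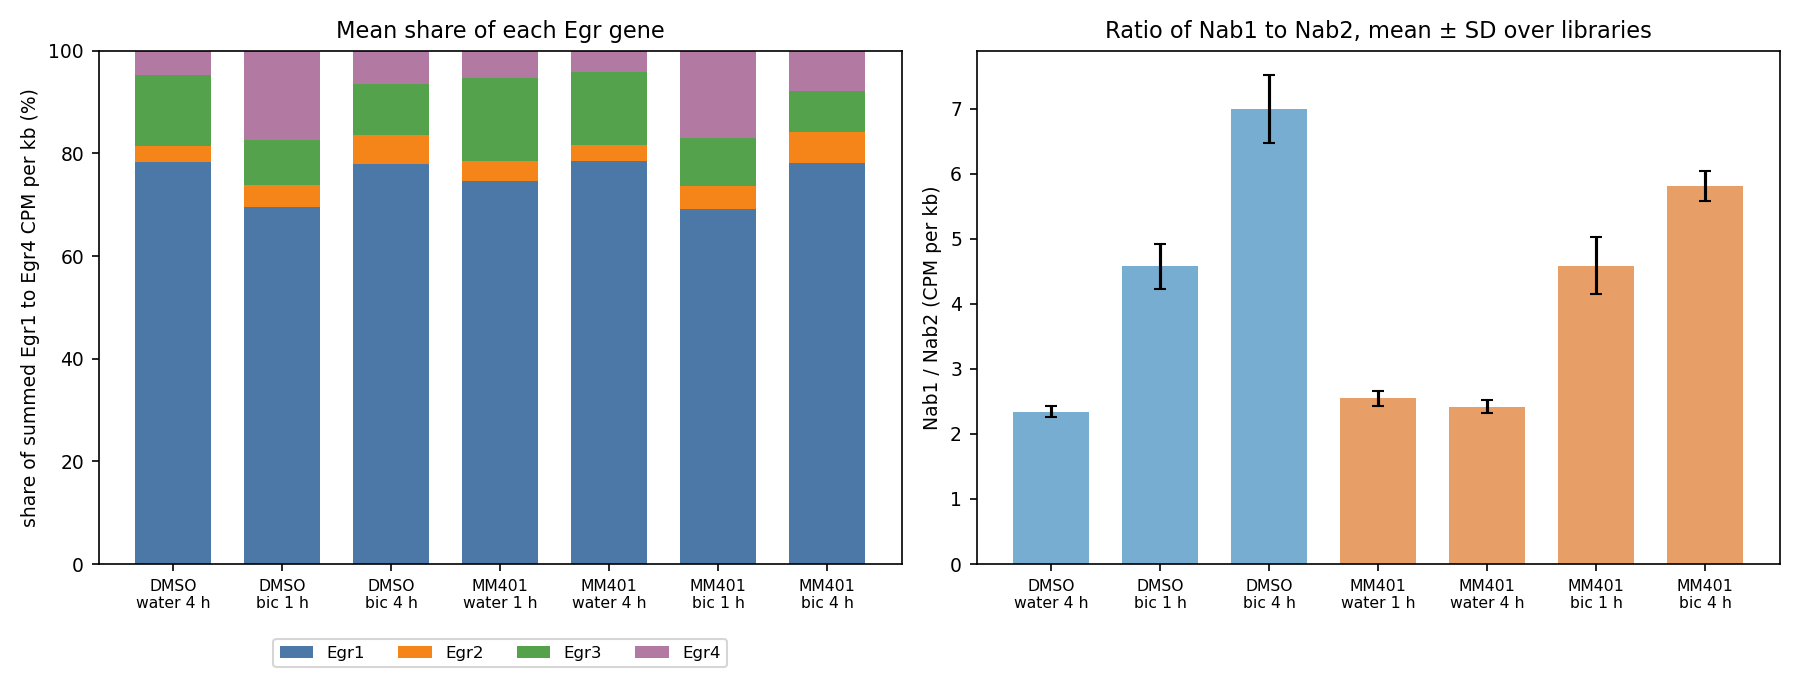
Left, the mean share in percent of each Egr gene in the summed CPM per kb of the 4 genes, by group; right, the ratio of Nab1 to Nab2 in CPM per kb, with bars as means and whiskers as SD over libraries. Egr4's share is largest at 1 h of bicuculline (17.5% in DMSO, 17.03% under MM401), and the Nab1 to Nab2 ratio climbs from 2.34 to 6.99 in DMSO.

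MM401 alone, and MM401 on top of bicuculline, changed none of the 6 genes by the test. In water at 4 h, edgeR called 14 of 16959 genes (0.0826%) between MM401 and DMSO and 0 of the 6, whose adjusted p ran from 0.584 to 0.942. Nab2 libraries did not overlap there, although the difference was -0.023 ± 0.11. At 1 h of bicuculline it called 1 gene (0.00590%) and 0 of the 6, at an adjusted p of 0.999, with differences from -0.14 ± 0.15 for Egr4 to 0.078 ± 0.059 for Nab1. At 4 h of bicuculline it called 0 genes (0.00%) and 0 of the 6. At an unadjusted p under 0.05 the same test gave 2194, 540 and 1309 genes, and DESeq2 called 162, 14 and 7. Without replicate 1 of DMSO with water, edgeR called 1272 genes in water, and none of the 6. The libraries of Egr1, Egr4 and Nab2 did not overlap at 4 h of bicuculline, with MM401 higher in each. How many of all genes stood apart in this way, here or in water, was not counted, so no effect of MM401 is read from it. For Egr4 the difference was 0.46 ± 0.18 (95% interval 0.10 to 0.82, edgeR adjusted p = 0.639), for Nab2 0.21 ± 0.11 (-0.0051 to 0.43, 0.64) and for Egr1 0.20 ± 0.099 (0.0022 to 0.39, 0.639). Egr2, whose libraries overlapped, differed by 0.29 ± 0.14 (0.0039 to 0.57, 0.639). These intervals rest on the SE alone and are narrower than the test allows. The unadjusted p of edgeR was 0.0616 for Egr1 and 0.0597 for Egr2, although both intervals leave out 0.

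Time in water was tested under MM401 only. There edgeR called 147 genes (0.867%) between 4 h and 1 h and 0 of the 6, with 1699 genes at an unadjusted p under 0.05. The count was 14 to 140 without 1 library, and DESeq2 called 275. Egr1 was 0.30 ± 0.11 higher at 4 h without overlap of libraries (edgeR adjusted p = 0.283), and Nab1 was -0.15 ± 0.067 (0.419). Nab1 and Nab2 libraries did not overlap either, with 4 h lower, although Nab2 differed by only -0.082 ± 0.11 (edgeR adjusted p = 0.918). How many of all genes stood apart in this way was not counted, so these separations say nothing particular about the members. All others ranged from -0.11 ± 0.22 for Egr4 to 0.023 ± 0.11 for Egr3. The 1 h responses in DMSO carry such a difference of time in their water control, which cannot be told apart from bicuculline there.

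The difference of the responses was tested directly. At 1 h, with both responses taken against water at 4 h, edgeR called 0 genes (0.00%), with 1326 at an unadjusted p under 0.05, and the 6 genes ran from -0.014 ± 0.15 for Egr1 to 0.14 ± 0.26 for Egr4. At 4 h it again called 0 genes (0.00%), with 2552 at an unadjusted p under 0.05. There Egr4's response was 0.74 ± 0.28 higher under MM401 (95% interval 0.19 to 1.30, edgeR adjusted p = 0.257), Egr2's 0.36 ± 0.22 (-0.071 to 0.80, 0.433) and Egr1's 0.30 ± 0.15 (0.013 to 0.59, 0.339), while Egr3's was -0.049 ± 0.15 (0.899). Without 1 library these ran from 0.35 to 1.27 for Egr4, from 0.18 to 0.57 for Egr2 and from 0.15 to 0.46 for Egr1, and none was called. Plain library size, which moved the median of all genes by 0.20 here, gave 0.95 for Egr4, 0.56 for Egr2, 0.51 for Egr1 and 0.44 for Nab2 (0.23 with TMM), with edgeR adjusted p from 0.188 to 0.209. Without replicate 1 of DMSO with water the test called 97 genes at 1 h and 1551 at 4 h, and none of the 6. DESeq2 called 5 at 1 h, 436 at 4 h and 0 for the step between them, again none of the 6. For the step from 1 h to 4 h it called 0 genes (0.00%), with 1195 at an unadjusted p under 0.05. Egr4 fell less under MM401 by 0.60 ± 0.24 (95% interval 0.13 to 1.07, edgeR adjusted p = 0.70) and Egr1 by 0.32 ± 0.14 (0.046 to 0.59, 0.702), and the others ran from -0.13 ± 0.083 for Nab1 to 0.29 ± 0.20 for Egr2. The test missing its threshold does not show that the responses were alike, since the interval for Egr4 reached 1.30 on the log2 scale at 4 h. The intervals given here rest on the SE alone and are narrower than the test allows. For Egr1's difference of responses at 4 h the interval leaves out 0, while the unadjusted p of edgeR was 0.0539.

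**Figure D4:**
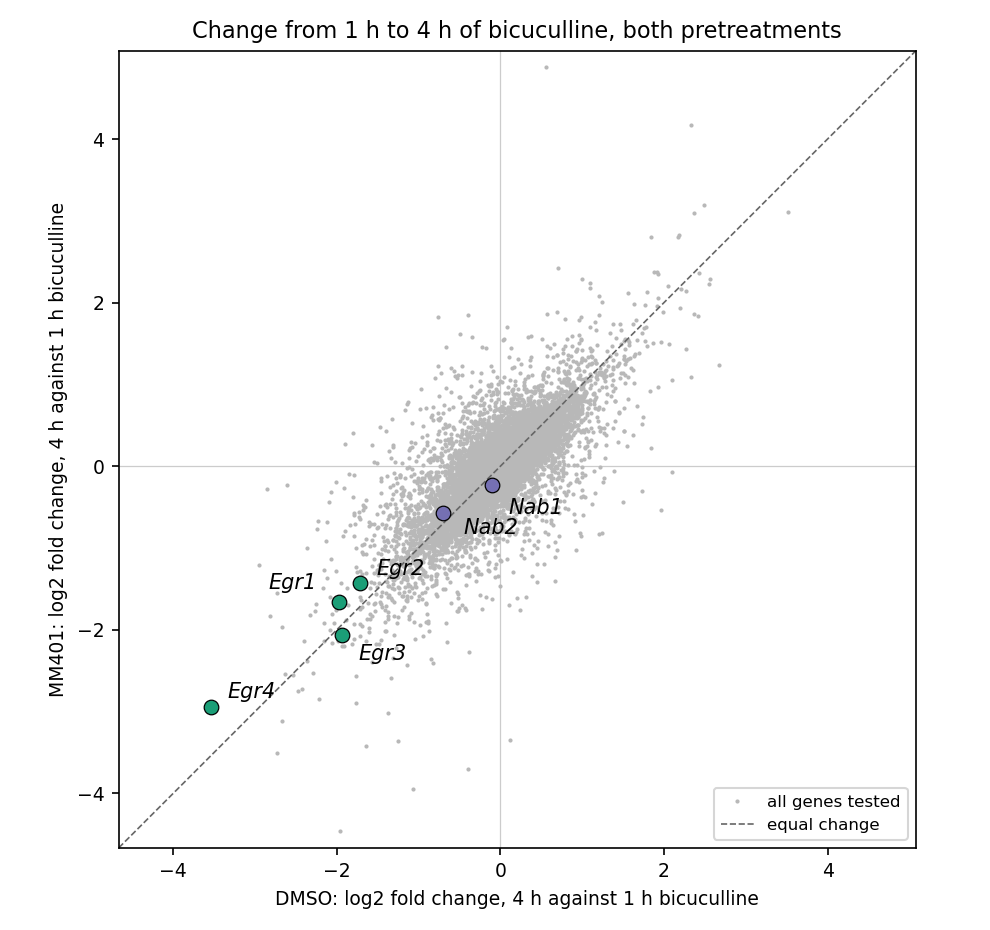
Log2 fold change from 1 h to 4 h of bicuculline in DMSO (x axis) and under MM401 (y axis), which share no libraries; grey points are all 16959 genes tested, coloured points are the Egr (green) and Nab (purple) genes, and the dashed line marks equal change. Egr1, Egr2 and Egr4 lie above the line and Egr3 below it, with Egr4 leftmost of all genes at -3.54.

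Around these genes 3 lists were described: subunits of NuRD, the SRF, CREB and ERK genes upstream, and reported EGR targets. Of the 12 NuRD genes tested, 2 were called higher and 6 lower at 1 h in DMSO (median -0.11, beside -0.038 over all genes), where 20% of all genes were called higher and 24.5% lower. At 4 h 1 was called higher and 3 lower (median -0.086, beside -0.024), against 23.7% and 25.5% of all genes. Under MM401 the counts were 2 and 2 at 1 h, against 18.1% and 21.8% of all genes, and 1 and 1 at 4 h, against 23.0% and 21.7%. The 4 h counts in DMSO are at or below these shares of all genes. The 3 called lower at 4 h in DMSO were Mta1, Hdac2 and Mbd3, and Rbbp4 was called lower with Mta1 at 1 h under MM401. Chd4, the NAB-binding remodeller, was not called in any of these 4 comparisons, from -0.11 ± 0.070 to 0.074 ± 0.062. Hdac2, Mbd3, Rbbp4 and Chd4 were singled out after their values were seen. Mbd2, which ties NuRD to methylated DNA, rose from 81.4 ± 1.25 CPM (SD, n = 3) in DMSO with water to 97.7 ± 6.89 at 1 h and 121 ± 1.35 at 4 h, and Mta1, a scaffold subunit, fell from 34.6 ± 1.31 to 30.1 ± 1.95 and 23.3 ± 1.69. Both were called in all 6 bicuculline comparisons. Rbbp7, a histone chaperone, rose at 1 h, by 0.46 ± 0.078 in DMSO (edgeR adjusted p = 5.69e-05) and 0.48 ± 0.079 under MM401 (4.4e-05), and did not pass the test at 4 h, at 0.13 ± 0.079 (0.192) and -0.082 ± 0.088 (0.474).

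Of the 18 upstream genes in the table, 8 were called higher and 4 lower at 1 h in DMSO and 12 higher and 4 lower at 4 h, with medians of 0.11 and 0.27, beside -0.038 and -0.024 over all genes. The shares of all genes called were those given for NuRD (20% higher and 24.5% lower at 1 h, 23.7% and 25.5% at 4 h), so the 4 called lower are near the share of all genes. Under MM401 the counts were 7 and 3 at 1 h and 9 and 3 at 4 h, where 18.1% and 21.8%, then 23.0% and 21.7%, of all genes were called. Those called lower, listed after their values were seen, were Elk1, Mrtfb, Creb1 and Mapk3 at 1 h in DMSO and Srf, Elk1, Mapk3 and Map2k2 at 4 h. Under MM401 they were Elk1, Mapk3 and Rps6ka1 at 1 h and Srf, Elk1 and Rps6ka1 at 4 h. Srf followed the Egr course: 8.12 ± 1.43 CPM in DMSO with water, 14.2 ± 2.05 at 1 h and 6.06 ± 0.41 at 4 h, with log2 changes of 0.80 ± 0.11 (edgeR adjusted p = 6.52e-06) and -0.42 ± 0.12 (0.00436) against water. Crem, which makes a CREB-family repressor among its products, stayed high as Nab1 did, with 54.9 ± 0.50, 132 ± 10.7 and 123 ± 4.65 CPM in the same groups. Rps6ka5, a kinase of histone H3 and CREB, climbed over both steps, from 125 ± 8.26 to 145 ± 7.60 and 207 ± 6.82 CPM.

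Of the 16 reported EGR targets, 7 were called higher and 0 lower at 1 h in DMSO (median 0.26), and 11 higher and 1 lower at 4 h (median 0.38, beside -0.024 over all genes). Of all genes, 20% were called higher and 24.5% lower at 1 h, and 23.7% and 25.5% at 4 h. Under MM401 the counts were 7 and 0 at 1 h, against 18.1% and 21.8% of all genes, and 8 and 1 at 4 h, against 23.0% and 21.7%. The genes called lower, named after their values were seen, were Cdk5r1 in DMSO (-0.53) and Ngfr under MM401 (-1.15). Arc, a synaptic immediate early gene, rose by 2.78 ± 0.16 at 1 h (edgeR adjusted p = 7.34e-10) and was still 1.09 ± 0.16 above water at 4 h (2.63e-05), from 10.5 ± 1.53 CPM in DMSO with water to 72.3 ± 2.82 and 22.4 ± 3.78. Htr2a, the serotonin 2A receptor, held 21.8 ± 4.05, 52.7 ± 4.67 and 61.2 ± 5.31 CPM in these groups and did not pass the test between 1 h and 4 h (0.22 ± 0.12, edgeR adjusted p = 0.202). Fn1, fibronectin, rose 1.69 ± 0.10 at 1 h against water at 4 h in DMSO (edgeR adjusted p = 1.43e-11) but 0.72 ± 0.099 against water at 1 h under MM401 (4.58e-06). It differed between the 2 MM401 water groups as well, by -0.84 ± 0.12 (0.00057). The 3 lists were written with earlier results of these data known, and neither their counts nor the motif matches test whether EGR or NAB proteins act on them.

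**Figure D5:**
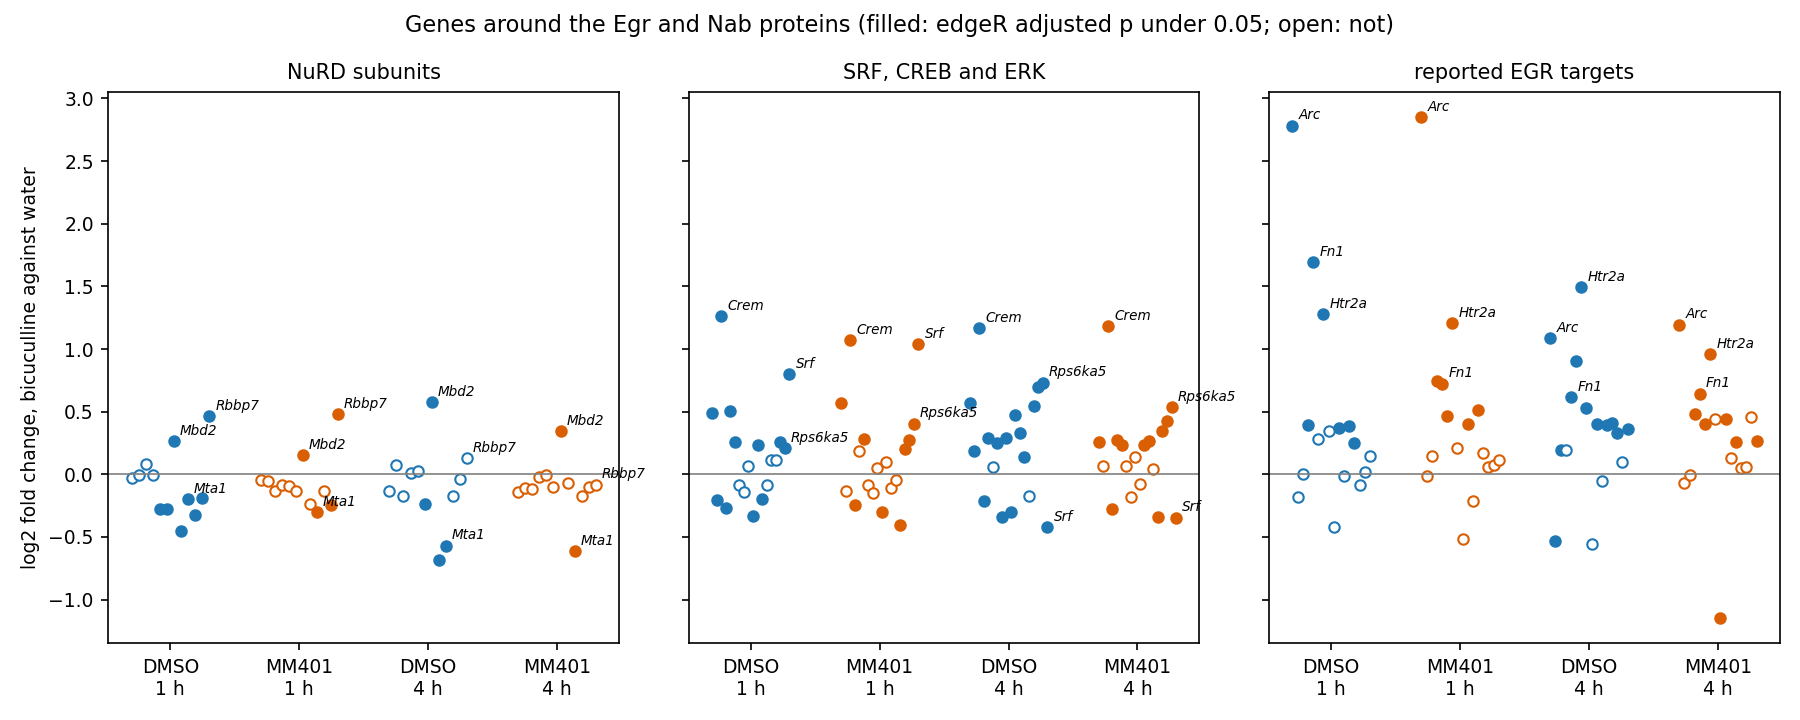
Log2 fold change of bicuculline against water for each gene of the 3 lists at 1 h and 4 h, in DMSO (blue) and MM401 (orange); filled points passed edgeR's test at an adjusted p under 0.05, and the genes named in the text are labelled. Arc, Fn1 and Htr2a stand highest among the reported targets, and the NuRD genes lie between -0.69 and 0.58.

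Across the 20 libraries, Egr4 correlated most closely with Egr2 among the members (Pearson r = 0.971 of log2 CPM) and with Egr1 (0.958), and less with Egr3 (0.761). Nab1 correlated with Nab2 at -0.553. These values describe 20 libraries that share group, depth and the same scaling. Among 12251 other genes with a mean of at least 2 CPM in their highest group, predicted and unnamed genes left out, the patterns most like each member were those of Slc25a25 (r = 0.987), Dstn and Chka for Egr4, and of Rasl11b (0.977), Rasl11a and Arc for Egr2. For Egr1 they were Entpd6 (0.961), Srf and Slc25a25, and for Egr3 Cul2 (0.973), Adam12 and Tbl1xr1. Tiparp (0.980), Cystm1 and Rheb were most like Nab1, and Cpne5 (0.976) and Polr1a were among those most like Nab2. The size of a change need not match for r to be high: Cul2 rose by 0.12 at 1 h in DMSO, where Egr3 rose by 0.87.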

How the data were processed

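BrU-seq read counts per gene, over the whole gene span, were deposited by the authors for 21 libraries in 7 groups. Per the submitters' processing notes, Bowtie2, featureCounts, UMI-tools, DESeq2 and deepTools were used with build mm10, and strand use, settings and versions are not given in the sources used here. The labels name no batch. The span lengths come from the deposited table and were used for CPM per kb only.

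One library with under 10% of the median total was left out. The 20 others were fitted with edgeR 4.0.16 (limma 3.58.1, R 4.3.3): TMM scaling, filterByExpr (min.count 10, min.total.count 15), robust quasi-likelihood F tests (two-sided) on 7 group means, and Benjamini-Hochberg adjustment over all 16959 genes of each of 13 comparisons at 0.05. Comparisons within a pretreatment share control or 1 h libraries, so they are not independent. DESeq2 1.42.0, plain library size, no filter, all libraries, the compared groups alone, a replicate block and leaving out each library were tried. Named genes of each list were the 3 called in the most of the 6 bicuculline comparisons, ties by mean absolute change. For likeness to a member they were the 3 with the highest r, of which 1 is not reported here. The members and lists were chosen with earlier results of these data known.

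Sample numbers in the titles run through all 7 groups within each replicate number, and the labels do not say that a number marks a shared batch. Of 27 correlations of same-numbered deviations, 10 were over 0.1 (range -0.229 to 0.241), so pairing was not shown in general. In 1 of 10 comparisons, MM401 against DMSO at 4 h of bicuculline, all 3 pairs were over 0.1 (0.150, 0.107 and 0.172), so the numbers were taken to pair the samples there, and the replicate block left 0 members and 0 genes called in it. The values given above for that comparison come from the fit without the block. At 1 h of bicuculline the same numbers gave 0.074, -0.045 and -0.229 between MM401 and DMSO. Replicate pairs differed beyond counting noise (chi-square per degree of freedom 6.14 to 78.5 over 19 pairs). The common biological coefficient of variation was 8.77%.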

Additional observations from a re-analysis of the deposited data

How the results depend on the processing

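In the 6 bicuculline comparisons, 214 of 222 results of the members kept their direction and side of the threshold when the whole fit was changed, 7 lost a call and 1 gained one. Leaving out 1 library kept 195 of 210, with 12 calls lost, 2 gained and 1 change of sign (Egr4 at 4 h in DMSO, -0.26 to 0.046). Outside bicuculline against water or time, no member was called under any alternative, and signs of values near 0 turned.

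Plain library size turned MM401 against DMSO for Nab1 to -0.062 in water and 0.065 at 4 h of bicuculline, and time in water for Egr3 to -0.036. It turned the difference of responses to 0.034 for Egr1 at 1 h, to 0.15 for Egr3 and 0.13 for Nab1 at 4 h, and to 0.045 for Egr3 and 0.038 for Nab1 in the step from 1 h to 4 h. It moved the median of all genes in the last 2 by 0.20 and 0.16. All 21 libraries gave -0.028 for Egr3 with time in water and 0.080 for the 1 h difference of Egr1. DESeq2 gave 0.00032 for Nab2 in water. The causes were not tested.

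Without 1 library, MM401 against DMSO in water ran from -0.27 to 0.045 for Egr1, -0.28 to 0.11 for Egr2, -0.18 to 0.044 for Egr3 and -0.80 to 0.11 for Egr4. At 1 h of bicuculline it ran from -0.084 to 0.038 for Egr2 and -0.10 to 0.080 for Egr3, and at 4 h from -0.081 to 0.013 for Nab1. Time in water ran from -0.28 to 0.11 for Egr2, -0.091 to 0.14 for Egr3 and -0.64 to 0.28 for Egr4. The difference of responses at 1 h ran from -0.18 to 0.13 for Egr1, -0.12 to 0.26 for Egr2, -0.063 to 0.17 for Egr3 and -0.26 to 0.65 for Egr4, and at 4 h from -0.16 to 0.064 for Egr3. With 1 library left in MM401 with water at 4 h, it was assumed to vary like the other groups.

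The replicate block changed no call of a member (in DMSO 6 were called at 1 h and 4 at 4 h, while MM401 gave 6 at each time). With the block, Nab2 was 0.0038 between MM401 and DMSO in water and Egr2 0.0040 at 1 h of bicuculline, and 4 genes in place of 1 were called in that comparison.

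The number of genes called over all genes moved by over 1.5 times in places: to 3745 (from 5805) in DMSO, and to 3646 (from 5691) with MM401, between 1 h and 4 h with all 21 libraries, from 14 to between 0 and 1272 for MM401 in water, from 1 to between 0 and 14 at 1 h of bicuculline, and from 147 to between 14 and 328 with time in water. The lowest count of a library was 94 for Nab2, 111 for Egr4 and 182 for Egr2, and at least 510 for the others.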
